A study of Mus musculus with 11 samples.

Results

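FGF1 and PDGFA were compared with each other, gene by gene, in mouse embryonic palatal mesenchyme cells 1 h after the ligand was added. These are primary cultures of the connective tissue precursors that build the secondary palate, taken from embryos at E13.5. They were grown in 10% serum and kept overnight in 0.1% serum. The deposited table holds 23286 transcript rows, and 8630 of them entered the comparison. A row entered if it reached 5 FPKM (mapped fragments per kilobase of a transcript, scaled to the library total, so that levels are per length) with FGF1 or with PDGFA, had no failed estimate and had a transcript of at least 200 nt. Of 8786 rows at 5 FPKM, 1 failed estimate, 45 rows of unknown length and 110 shorter rows were left out. Just inside the limit lay Cadm3, at 5.0002 FPKM with PDGFA, and just outside it Dnajc17, at 4.99.

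The FGF1 group had 3 libraries of cells given 50 ng/mL FGF1 together with 1 µg/mL heparin. The PDGFA group had 4 libraries of cells given 30 ng/mL PDGFA, without heparin. Starved cells given no ligand, in 4 libraries, are quoted as the background of each gene. The ligand groups therefore differed in ligand, in dose and in heparin, and no cells received heparin alone, so what FGF1 did and what heparin did cannot be told apart. The labels give no genotype and do not say whether libraries of a group came from separate litters or cultures. Each group has 1 FPKM per row, the authors' estimate over its libraries, and the deposited bounds of that estimate are printed in square brackets after it. No value per library was used, so no test between replicates stands behind any difference.

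PDGFA binds the PDGF receptors and FGF1 the FGF receptors. Both are receptor tyrosine kinases, and both families signal through the ERK mitogen-activated protein kinases and phosphatidylinositol 3-kinase. Heparin, like the heparan sulfate of the cell surface, stabilises the complex of FGF with its receptor. Within the first hour such ligands switch on immediate early genes, which are transcribed without new protein synthesis. Many of these are controlled by serum response factor (SRF), which works with ERK-activated ternary complex factors at one set of genes and with the actin-regulated MRTF coactivators at another. In the developing palate both receptor families act in the neural crest mesenchyme.

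Receptors of both ligands were detected, at similar values in the ligand groups. Fgfr1 stood at 43.1 FPKM in starved cells, 46.8 with PDGFA and 44.9 with FGF1. Fgfr2 had 10.7, 13.3 and 11.5 FPKM in the same order. Pdgfrb had 71.1, 63.9 and 70.9 FPKM, and Pdgfra, the main receptor of PDGFA and a marker of this mesenchyme, had only 3.87, 3.52 and 2.46. The other palatal mesenchyme markers were present, and all 10 that the table holds reached 1 FPKM. Prrx1, a homeobox factor of limb and craniofacial mesenchyme, had 206 FPKM with PDGFA and 228 with FGF1, and the palate factor Pax9 had 11.1 and 12.7.

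The 2 ligands left nearly all transcripts at similar values. The median log2 ratio of FGF1 to PDGFA, on FPKM + 0.5, was 0.02, with 54.1% of rows above 0. Its 5th and 95th percentiles were -0.33 and 0.30, and 8493 rows (98.4%) lay within 1.5-fold. A row was called different only when the deposited intervals of the ligand groups lay wholly apart and neither FPKM fell outside its bounds. By that rule 3 rows (0.0348%) were higher with FGF1 and 5 rows (0.0579%) higher with PDGFA. By size alone, 48 rows (0.556%) were at least 1.5-fold higher with FGF1 and 89 rows (1.03%) at least 1.5-fold higher with PDGFA. A row could enter on a high value with either ligand alone, which bears on these counts. With 5 FPKM required in both groups, 40.4% of the rows past 1.5-fold were higher with FGF1, against 35.0% here. With median-of-ratios scaling the calls became 1 and 5. A z value made from the bounds, recentred and rescaled to its own spread over all rows, gave 25 and 59 at an adjusted p of 0.05. The rescaling made this count less strict than the bounds themselves. Dusp6 was counted, though its ratio interval from the bounds, taken as 95% bounds, was 0.91 to 2.93.

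Precision limited the calls more for PDGFA than for FGF1. The median distance from the FPKM to its bounds was 48.3% of the FPKM with PDGFA, 33.4% with FGF1 and 24.1% in starved cells. With bounds of those median widths, intervals lie apart only from a 2.23-fold difference upward where FGF1 is higher, and from 2.58-fold where PDGFA is higher. The limit is lower for rows with tighter bounds.

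**Figure D1:**
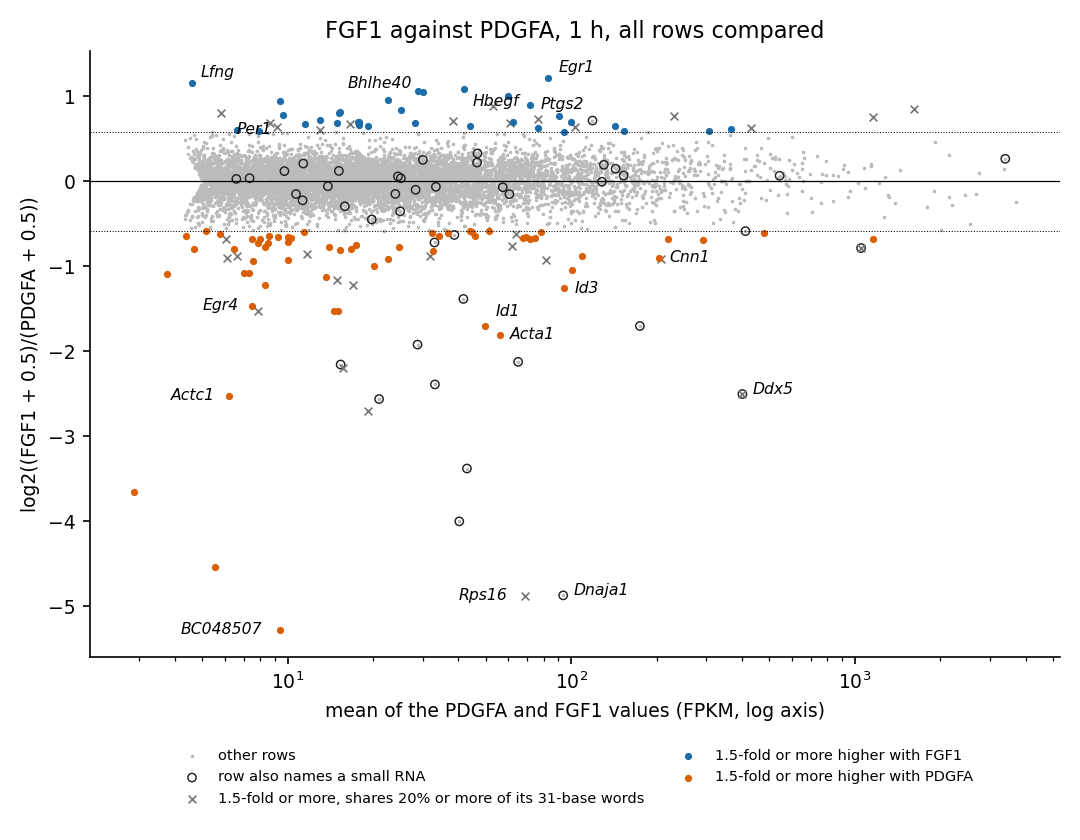
Each point is 1 of the 8630 rows, placed by the mean of its PDGFA and FGF1 values (FPKM, log axis) and by its log2 ratio of FGF1 to PDGFA, so points above 0 were higher with FGF1. Dotted lines mark 1.5-fold. Blue and orange points past the lines are the 33 and 60 rows that neither name a small RNA nor share much sequence with another locus; open circles name a small RNA and crosses share 20% or more of their 31-base words.

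The 3 rows called higher with FGF1 were Egr1, Lfng and Per1. Egr1, a zinc-finger immediate early factor whose promoter is a classical target of ERK signalling, had 11.4 FPKM [8.52 to 14.2] in starved cells, 49.7 [23.6 to 75.7] with PDGFA and 116 [76.7 to 155] with FGF1. All 3 intervals lay apart, in the order starved, PDGFA, FGF1. The ratio of FGF1 to PDGFA was 2.33, with an interval of 1.25 to 4.35 if the bounds are 95% bounds. PDGFA's upper bound and FGF1's lower bound were less than 1 FPKM apart, and with median-of-ratios scaling the Egr1 intervals overlapped, at a log2 ratio of 1.19.

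Lfng encodes Lunatic fringe, a glycosyltransferase that modifies Notch receptors. It had 2.14 FPKM [1.37 to 2.92] in starved cells, 2.65 [1.93 to 3.37] with PDGFA and 6.55 [4.17 to 8.92] with FGF1, a ratio of 2.47. The starved and PDGFA intervals overlapped, and the FGF1 interval lay above both. Per1, a period gene of the circadian clock that also responds acutely to kinase signalling, had 6.57 FPKM [5.04 to 8.11] in starved cells, 6.95 [5.56 to 8.33] with PDGFA and 12.3 [8.34 to 16.3] with FGF1. Its ratio was 1.77, and its intervals nearly touched. With median-of-ratios scaling its log2 ratio was 0.76 and the call was lost. The PDGFA bounds of these genes were unusually tight, at 27.2% of the FPKM for Lfng and 19.97% for Per1. Lfng was below 5 FPKM with PDGFA and entered through its FGF1 value alone. Genes with larger ratios than Per1 but wider bounds, described next, were not called.

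Lfng (chr5:140607341-140615545) and Per1 (chr11:69095108-69109965) were the called genes that were higher with FGF1 and close to the starved value with PDGFA, so their promoter windows are shown, from 250 bases before to 50 after the start site, from RefSeq on GRCm38.p6. The Lfng window is chr5:140607091-140607390 and the Per1 window chr11:69098699-69098998, both on the plus strand. Per1 has a second RefSeq window, which held neither motif searched. Capitals mark CACGTG, the E-box bound by basic helix-loop-helix factors, which reads alike on both strands. It starts 112 bases before the Lfng start site and 166 bases before that of Per1.
Lfng: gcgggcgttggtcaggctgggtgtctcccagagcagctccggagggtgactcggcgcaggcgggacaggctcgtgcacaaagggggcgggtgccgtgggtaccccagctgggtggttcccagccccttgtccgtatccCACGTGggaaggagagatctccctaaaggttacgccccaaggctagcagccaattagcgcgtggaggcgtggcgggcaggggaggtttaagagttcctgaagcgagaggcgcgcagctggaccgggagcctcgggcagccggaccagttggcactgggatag
Per1: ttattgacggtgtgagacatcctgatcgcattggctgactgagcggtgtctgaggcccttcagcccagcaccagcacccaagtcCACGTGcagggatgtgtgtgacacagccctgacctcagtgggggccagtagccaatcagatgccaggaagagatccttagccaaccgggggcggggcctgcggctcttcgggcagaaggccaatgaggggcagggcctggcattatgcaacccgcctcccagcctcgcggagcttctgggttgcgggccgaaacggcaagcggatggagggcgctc
Of all 32851 RefSeq promoter windows of this length 7.15% held this E-box, and of the 7021 compared genes with a window 12.6% did. Rows that share 20% or more of their words or name a small RNA were set aside for the next counts. Of the genes with a window that were at least 1.5-fold higher with FGF1, 4 of 23 (17.4%) held it, and of those higher with PDGFA 4 of 46 (8.70%). The matches describe these letters only.

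Just short of a call stood a row of other early response genes, all higher with FGF1 and with intervals that overlapped at their ends. Hbegf, a membrane-anchored ligand of the EGF receptor, had 11.98 FPKM in starved cells, 26.8 [13.97 to 39.6] with PDGFA and 57.3 [38.9 to 75.6] with FGF1, a ratio of 2.14. Bhlhe40, a basic helix-loop-helix repressor that takes part in the clock, had 13.1 FPKM, 19.3 [10.3 to 28.4] and 40.6 [28.1 to 53.2], a ratio of 2.10. In both genes the overlap was less than 1 FPKM wide. Zfp36l2, an RNA-binding protein that promotes decay of AU-rich transcripts, had 27.4, 39.8 [21.4 to 58.2] and 80.1 [55.2 to 105].

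Klf10, a Krüppel-like factor, had 8.27 FPKM in starved cells, 15.3 [7.98 to 22.5] with PDGFA and 30.1 [20.5 to 39.7] with FGF1. Nuak2, a kinase of the AMPK family, had 4.33, 6.29 [3.05 to 9.53] and 12.5 [8.48 to 16.6]. Ptgs2, the inducible prostaglandin synthase, had 17.7, 49.8 [25.5 to 74.2] and 93.7 [64.2 to 123]. In each of these the starved value was the lowest of the 3 and the FGF1 value the highest. Plk3, a polo-like kinase, had 6.08, 10.9 and 19.7 FPKM. The cytokine gene Lif, a ligand of the gp130 receptor family, had 7.21, 9.70 and 16.4. Fosl1, the AP-1 subunit FRA1, had 3.70, 10.9 and 19.5 FPKM, but its PDGFA interval ran from 0.307 to 23.0, so that its ratio was poorly determined.

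Another set was higher with FGF1 and had a PDGFA value below the starved value. Col10a1, a collagen best known from hypertrophic cartilage, had 36.6 FPKM [26.7 to 46.5] in starved cells, 18.5 [9.20 to 27.8] with PDGFA and 39.2 [22.6 to 55.9] with FGF1. Chodl, a membrane protein with a C-type lectin domain, had 111, 66.6 and 114 FPKM. Agtr2, the type 2 angiotensin II receptor, had 89.3, 47.7 and 77.5. Medag had 24.1, 17.8 and 32.3. For Col10a1, Chodl and Agtr2 the FGF1 value stayed within the starved interval, and none of the 4 had ligand intervals that lay apart.

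**Figure D2:**
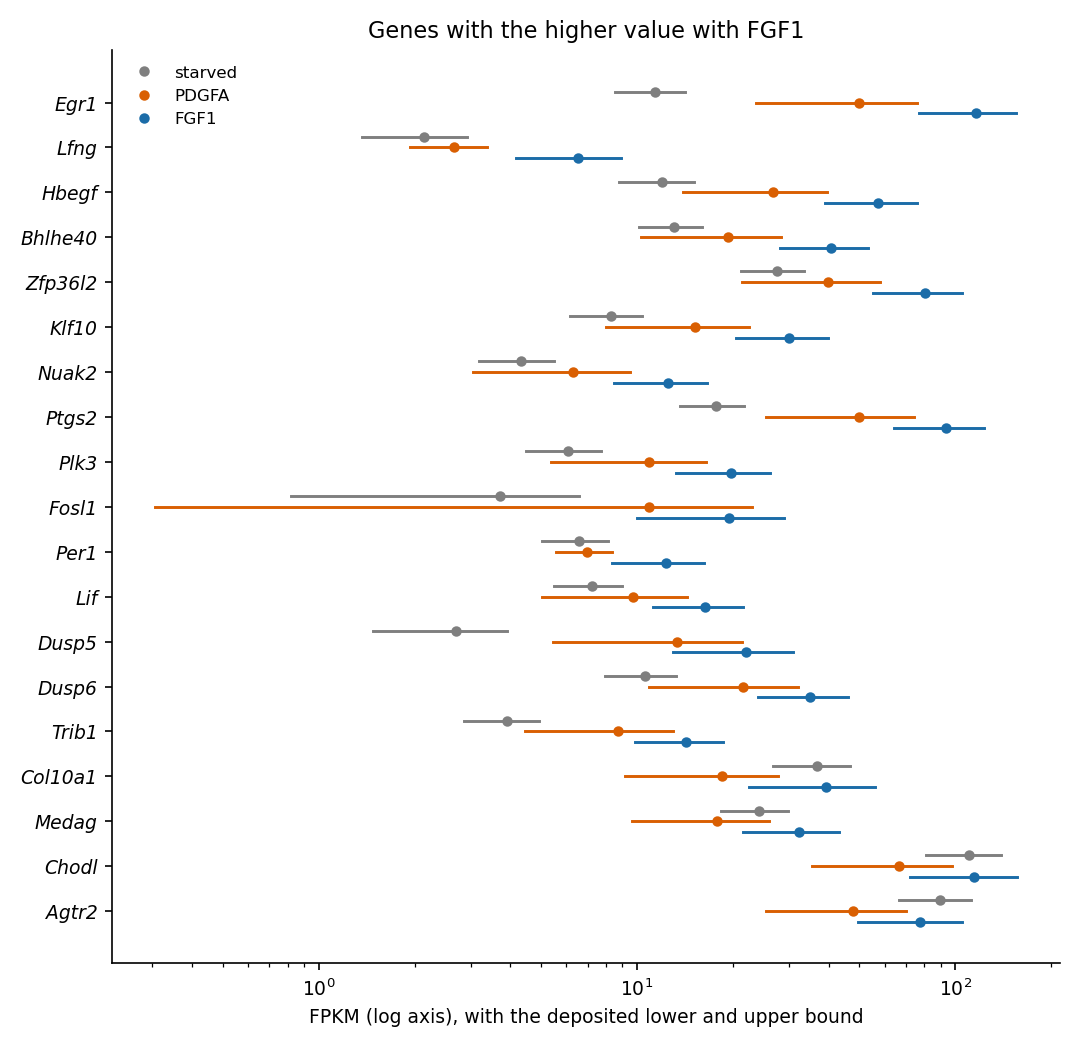
FPKM (log axis) of 19 genes with a higher value with FGF1, in starved cells (grey), with PDGFA (orange) and with FGF1 (blue); points are the deposited group values and lines run from the lower to the upper bound. The blue and orange lines lie apart for Egr1, Lfng and Per1 only, and the bottom 4 genes have orange points below the grey ones.

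Of the 48 rows at least 1.5-fold higher with FGF1, 14 share 20% or more of their 31-base words with another locus and 1 names a small RNA. The remaining 33 have neither of these limits, but among them only Egr1, Lfng and Per1 had ligand intervals that lay apart. The starved value of the 33 was below both ligand values in 17 (51.5%), between them in 13 (39.4%) and above both in 3 (9.09%). Over all 8079 rows without those limits the shares were 42.1%, 32.6% and 25.2%. Picking rows by a wide gap between the ligands by itself makes a starved value above both less likely. These shares are therefore no independent result. In 11 of the 33 (33.3%) the gene was on one of 3 lists of early response genes, against 80 of 8079 such rows in all (0.990%). The lists were immediate early transcription factors, other early response genes, and MAPK phosphatases with receptor feedback inhibitors. They were chosen with earlier results of these data known, so this share is not independent support. The 33 genes spanned a median of 8205 nt of genome, against 24300 nt over all, while their median transcript length of 3036 nt was close to the overall 3095 nt.

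Immediate early transcription factors were split between the ligands. All 30 on the list were compared; 4 were at least 1.5-fold higher with FGF1 (Egr1, Bhlhe40, Klf10 and Fosl1) and 4 at least 1.5-fold higher with PDGFA (Egr4, Fosb, Cebpb and Nr4a3). Egr4, Fosb and Nr4a3 were below 5 FPKM with FGF1, at 3.76, 4.51 and 4.47, and entered through their PDGFA value alone. The 4 on the FGF1 side were above 5 FPKM in both ligand groups. Over all rows 0.556% were at least 1.5-fold higher with FGF1 and 1.03% at least 1.5-fold higher with PDGFA. The list median was 0.03, close to that of all rows, and its range ran from -1.46 to 1.21. Family members parted. Egr2 had 0.519, 7.96 and 12.02 FPKM in starved, PDGFA and FGF1 cells, so that it was higher with FGF1 like Egr1. Egr3 had 0.520, 26.5 and 20.4, and Egr4 0.0878 [0.0181 to 0.163], 11.2 [3.65 to 18.8] and 3.76 [2.16 to 5.37], both higher with PDGFA. Within the AP-1 family Fos had 2.62, 6.76 and 10.2 FPKM while Fosb had 0.269 [0.131 to 0.403], 10.1 [3.31 to 16.9] and 4.51 [2.92 to 6.08]. Only Egr1 among the 30 had ligand intervals that lay apart.

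Several of the strongest early genes had the same value with both ligands. Nr4a1, an orphan nuclear receptor, had 12.7 FPKM in starved cells, 166 [60.0 to 272] with PDGFA and 164 [107 to 220] with FGF1. Junb had 12.7, 75.6 and 75.1 FPKM, and the cytoskeletal early gene Arc 0.746, 19.9 and 18.7. The interval of the ratio ran from 0.479 to 2.04 for Nr4a1 and from 0.4997 to 1.97 for Junb, so differences of up to about that size are not excluded by these bounds. Csrnp1 had 4.27 FPKM in starved cells and 14.1 with each ligand.

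Other early response genes leaned to FGF1. Of 37 on the list 31 were compared, and 22 had the higher value with FGF1, against 54.1% of all rows. At least 1.5-fold higher with FGF1 were 5 (0.556% of all rows), and with PDGFA 2 (1.03% of all rows). The list median was 0.30. After a trend on GC content, transcript length and level was removed it was 0.23. Zfp36l2 and Nuak2 were at the top. Trib1, a pseudokinase that scaffolds ubiquitin ligation, had 3.90, 8.74 and 14.2 FPKM, and the kinase gene Sgk1 13.99, 23.3 and 34.5. At the other end Nfkbia, the inhibitor of NF-κB, had 14.7, 27.1 and 13.3 FPKM with a PDGFA interval of 0.167 to 73.1, and the stress gene Gadd45g had 46.6, 91.2 and 57.5.

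Genes that restrain receptor signalling were mostly a little higher with FGF1. Of 23 MAPK phosphatases and feedback inhibitors 20 were compared, 15 had the higher value with FGF1, and the median was 0.13. Of all rows 54.1% were higher with FGF1. Dusp5, a nuclear ERK phosphatase, had 2.69 FPKM [1.484 to 3.89] in starved cells, 13.4 [5.44 to 21.3] with PDGFA and 22.1 [12.9 to 30.9] with FGF1. Dusp6, the cytoplasmic ERK phosphatase known as an FGF synexpression gene, had 10.6, 21.5 [10.9 to 32.0] and 35.0 [24.0 to 46.1]. Those 2 were the members past 1.5-fold, against 0.556% of all rows at least 1.5-fold higher with FGF1. Dusp4 had 5.85, 12.1 and 16.3 FPKM and Errfi1, an inhibitor of the EGF receptor, 6.84, 27.7 and 36.4.

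The Sprouty inhibitors differed among themselves. Spry4 had 4.17, 5.84 and 8.83 FPKM in starved, PDGFA and FGF1 cells, Spry1 had 15.96, 17.6 and 22.7, and Spry2 had 11.7, 19.2 and 20.2. The stress-responsive phosphatase gene Dusp1 had 29.1, 89.0 and 82.4 FPKM, close to equal with both ligands. ETS factors, which act downstream of FGF in many embryonic tissues, differed little. Etv4 had 5.08, 6.42 and 5.90 FPKM and Etv5 12.4, 11.1 and 14.1. Over the 22 ETS and FGF synexpression genes compared the median was 0.08, and 1 gene, Dusp6, was past 1.5-fold.

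On the PDGFA side the cardiac and skeletal muscle actins stood out. Actc1, the cardiac alpha-actin, had 1.46 FPKM [0.767 to 2.14] in starved cells, 11.0 [4.00 to 17.9] with PDGFA and 1.49 [0.712 to 2.25] with FGF1. The FGF1 and starved values were alike, and the PDGFA interval lay above both, with a ratio of PDGFA to FGF1 of 7.37 and an interval of 3.26 to 16.7. Acta1, the skeletal alpha-actin, had 17.2 FPKM [13.1 to 21.4], 87.5 [25.6 to 149] and 24.6 [16.1 to 33.1]. Its ratio of PDGFA to FGF1 was 3.56, and its ligand intervals overlapped between 25.6 and 33.1 FPKM, so that it was not called.

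Actc1 (chr2:114047282-114052875) and Acta1 (chr8:123891758-123894775) are textbook SRF targets, and their RefSeq promoter windows on GRCm38.p6 are shown for the CArG box, the SRF binding sequence. The windows are chr2:114052826-114053125 for Actc1 and chr8:123894726-123895025 for Acta1, both on the minus strand and printed in the direction of transcription. Capitals mark the CArG box, searched on both strands, which starts 47 bases before the Actc1 start site and 73 bases before that of Acta1.
Actc1: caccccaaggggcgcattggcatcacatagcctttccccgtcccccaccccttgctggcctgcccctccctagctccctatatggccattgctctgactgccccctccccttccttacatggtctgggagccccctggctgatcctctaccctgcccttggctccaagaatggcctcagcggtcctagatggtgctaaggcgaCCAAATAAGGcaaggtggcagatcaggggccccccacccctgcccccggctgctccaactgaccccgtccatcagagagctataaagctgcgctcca
Acta1: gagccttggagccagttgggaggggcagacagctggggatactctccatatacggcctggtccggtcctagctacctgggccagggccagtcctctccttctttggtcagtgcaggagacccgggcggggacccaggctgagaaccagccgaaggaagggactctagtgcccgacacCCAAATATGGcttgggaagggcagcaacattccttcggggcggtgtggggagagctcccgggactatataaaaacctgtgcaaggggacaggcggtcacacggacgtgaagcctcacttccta
A CArG box was found in 1.63% of all 32851 windows and in 1.68% of the 7021 compared genes with one. With shared and small-RNA rows set aside, 3 of 46 genes (6.52%) at least 1.5-fold higher with PDGFA held it. Of those higher with FGF1, 1 of 23 (4.35%) did. On the list of SRF-MRTF cytoskeletal genes 11 of the 34 with a window (32.4%) held it, a share built into a list of SRF genes. Those 11 had a median log2 ratio of -0.30, with 10 higher with PDGFA, and the 23 without it a median of -0.20, with 16 higher with PDGFA.

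The wider set of contractile and cytoskeletal genes was also higher with PDGFA. Of 40 SRF-MRTF genes 38 were compared, 30 had the higher value with PDGFA, 8 were at least 1.5-fold higher with PDGFA and 0 with FGF1. Over all rows 54.1% were higher with FGF1, 1.03% were at least 1.5-fold higher with PDGFA and 0.556% with FGF1. The list median was -0.25, against 0.02 for all rows, and -0.19 after the trend on GC content, length and level was removed. Cnn1, the smooth muscle calponin, had 112 FPKM [72.7 to 152] in starved cells, 265 [73.4 to 457] with PDGFA and 142 [82.1 to 202] with FGF1. Actg2, the enteric smooth muscle actin, had 310, 580 and 379 FPKM, the myosin light chain gene Myl9 750, 1426 and 892, and the nonmuscle myosin gene Myh9 218, 359 and 222. In these the FGF1 value lay between the starved and PDGFA values, and nearer the starved one. Srf itself had 28.2, 58.4 and 42.6 FPKM. Actb, beta-actin, had 1552, 2971 and 2108 FPKM, but 35.1% of its 31-base words occur at another locus. Vcl, vinculin, had narrow PDGFA bounds, with 185 FPKM in starved cells, 267 [217 to 316] with PDGFA and 217 [159 to 275] with FGF1. Of the list's 38, Actc1 alone was called.

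Smooth muscle and pericyte markers, which overlap this list, were higher with PDGFA in all 9 that were compared, with a median of -0.24. With the trend removed 3 of the 9 were higher with FGF1, and the median was -0.20. Myh11, the smooth muscle myosin heavy chain, had 21.6 FPKM in starved cells, 41.7 [17.1 to 66.3] with PDGFA and 23.4 [16.001 to 30.7] with FGF1. In bulk RNA a different number of cells of a type and a different amount of RNA per cell cannot be told apart. Skeletal muscle markers were also higher with PDGFA, at very low values. Of the 20 markers measured, 17 were higher with PDGFA, and their summed level was 13.2 FPKM in starved cells, 23.8 with PDGFA and 11.9 with FGF1. Mylpf, the fast skeletal regulatory light chain, had 2.49, 5.30 and 2.23 FPKM, and Tnni1, slow skeletal troponin I, 0.704, 2.68 and 0.414. Myod1, the myogenic master factor, was at 0.0712, 0.258 and 0.0439 FPKM, and Ckm, muscle creatine kinase, at 0 with both ligands. Whether muscle cells had a part in the Acta1 and Actc1 values was not tested.

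**Figure D3:**
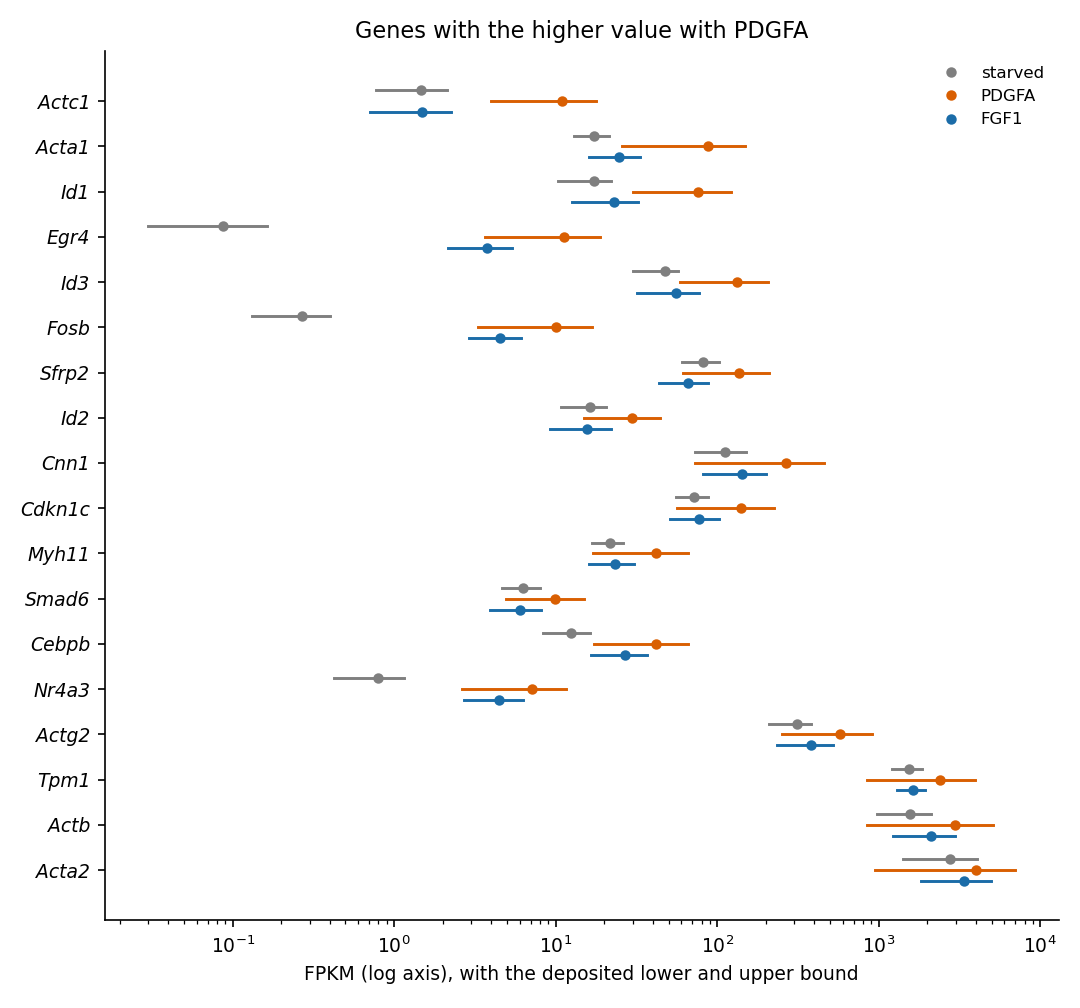
FPKM (log axis) of 18 genes with a higher value with PDGFA, drawn as group value with lower and upper bound for starved (grey), PDGFA (orange) and FGF1 cells (blue); values or bounds under 0.03 FPKM are drawn at 0.03. The orange and blue lines lie apart for Actc1 only, and for Id2, Sfrp2 and Smad6 the blue point lies below the grey one.

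Inhibitors of DNA binding, familiar targets of BMP and SMAD signalling, formed the second group that was higher with PDGFA. Id1 had 17.3 FPKM [10.3 to 22.0] in starved cells, 76.3 [30.0 to 122] with PDGFA and 23.0 [12.7 to 32.6] with FGF1, a ratio of PDGFA to FGF1 of 3.31. Id3 had 47.7 [30.1 to 57.5], 134 [59.1 to 208] and 55.5 [31.8 to 77.1], a ratio of 2.40. Id2 had 16.4, 29.7 and 15.6. With FGF1 the 3 genes stayed near their starved values, and in Id1 the ligand intervals overlapped by less than 3 FPKM. Id4, the other member of the family, had 37.0, 35.2 and 39.9 FPKM, with no such difference.

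Smad6, the inhibitory SMAD of the BMP pathway, had 6.31, 9.93 and 6.04 FPKM. Atoh8, a basic helix-loop-helix gene that responds to BMP and lay under the 5 FPKM limit, had 1.55 FPKM [0.954 to 2.13], 4.53 [1.81 to 7.23] and 1.26 [0.663 to 1.84]. It was named after its values were seen. Targets shared with TGF-beta did not follow. Skil had 14.6, 16.8 and 23.8 FPKM, and Smad7 7.45, 12.7 and 13.3. So over all 20 TGF-beta and BMP response genes compared, 4 were at least 1.5-fold higher with PDGFA and 0 with FGF1. Of all rows 1.03% and 0.556% were so. On the list 12 had the higher value with PDGFA, and the median of -0.07 became 0.01 once the trend was removed.

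Other single genes with PDGFA above FGF1 came from several pathways. Sfrp2, a secreted Wnt modulator, had 81.5 FPKM [60.2 to 102] in starved cells, 136 [61.7 to 210] with PDGFA and 65.9 [43.4 to 87.8] with FGF1. Dlk1, a Notch-ligand-like membrane protein, had 8.58, 18.9 and 8.40. Cdkn1c, the cell cycle inhibitor p57, had 71.6, 141 and 76.7. Kif26b, a kinesin family member, had 6.56, 9.72 and 4.36, and its FGF1 value lay below the starved interval, 5.14 to 7.97. Twist1, a factor needed in cranial mesenchyme, had 60.1, 94.4 and 62.4. The intervals of all 5 overlapped between the ligands.

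Of the 89 rows at least 1.5-fold higher with PDGFA, 17 share 20% or more of their words with another locus and 14 name a small RNA. The remaining 60 had their starved value below both ligand values in 39 (65.0%), between them in 19 (31.7%) and above both in 2 (3.33%). Over all such rows the shares were 42.1%, 32.6% and 25.2%. As on the FGF1 side, picking rows by the ligand gap partly sets these shares, so they are no independent result. The 60 spanned a median of 7796 nt of genome, with a median transcript length of 1804 nt and a GC content of 55.5%. Over all such rows these were 24300 nt, 3095 nt and 50.7%. Of the 60, 6 (10.0%) were on the 3 early response lists, against the 0.990% given above. Among these 6, Egr4, Fosb and Nr4a3 were below 5 FPKM with FGF1 and entered through their PDGFA value alone. The lists were chosen with earlier results of these data known, so this share is not independent support either. With the trend on GC content, length and level removed, all 60 stayed higher with PDGFA and 36 stayed past 1.5-fold. For the 33 rows on the FGF1 side the corresponding counts were 33 and 21. The kept directions carry little weight, because rows picked past 1.5-fold lie far from 0 beside the trend. Median log2 ratios over eighths of GC content ran only from 0.18 to -0.17.

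All 5 rows called higher with PDGFA were below 5 FPKM with FGF1 and entered through their PDGFA value alone, and 4 are harder to read than Actc1. BC048507 (chr13:67863326-67863923) was listed at 0 FPKM in starved and FGF1 cells and at 18.8 [4.84 to 32.4] with PDGFA. The transcribed pseudogene 4930503E24Rik (chr10:124469074-124524488) was listed at 0 in both as well and at 11.1 [3.23 to 18.9] with PDGFA. Against a group listed at 0 no ratio is given. Rps16, a protein of the small ribosomal subunit, had 3.56, 134 [25.5 to 243] and 4.08 FPKM, and 44.5% of its 31-base words occur elsewhere. Atp5l, a subunit of the mitochondrial ATP synthase, had 2.95, 33.7 [8.61 to 56.5] and 4.77, with 69.7% shared. Both are uncertain, because the split of reads among copies is not given. Ribosomal protein genes as a whole were past 1.5-fold in both directions, 8 each way of 69, with 63 of the 69 sharing 20% or more. By sign they leaned to FGF1, with 50 of 69 higher and a median of 0.25, or 0.20 with the trend removed, and the 6 sharing less had a median of 0.06.

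Rows that name a small RNA beside a longer transcript form a separate class. There were 43 among the compared rows, each carrying a microRNA or small nucleolar RNA accession with that of its host or neighbour. Of these 14 (32.6%) were at least 1.5-fold higher with PDGFA, against 75 of the 8587 other rows (0.873%). The row of Dnaja1, a heat shock co-chaperone, had 4.76 FPKM [2.46 to 7.06] in starved cells, 182 [1.98 to 301] with PDGFA and 5.73 [1.32 to 10.1] with FGF1. Igf2bp1, an mRNA-binding protein, had 7.30, 78.7 [5.50 to 140] and 7.12, and the ubiquitin ligase gene Stub1 73.3, 268 [48.5 to 406] and 81.9. Their PDGFA bounds were wide, with a median distance of 77.7% of the FPKM in the 14 rows against 57.2% in the 60 above. Values of such rows cannot be read as the level of the longer gene. Among rows sharing under 20% of their words, 9 of the 12 largest ratios on the PDGFA side with overlapping intervals were such rows, and on the FGF1 side 0.

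Secreted factors and matrix genes gave a mixed picture. Of 26 secreted growth factors compared, Hbegf alone was past 1.5-fold. Fgf7, a paracrine ligand of epithelial FGF receptors, had 31.7 FPKM in starved cells, 33.7 [13.2 to 54.1] with PDGFA and 50.2 [30.6 to 69.7] with FGF1. By value, Ptn and Mdk leaned to PDGFA, with 61.9 and 46.6 FPKM for Ptn and 105 and 84.9 for Mdk. Their ratios of PDGFA to FGF1 had wide intervals, 0.746 to 2.36 for Ptn and 0.690 to 2.21 for Mdk. Of 39 matrix genes compared 18 had the higher value with FGF1 and 21 with PDGFA, and their median was 0.00. Of all rows 54.1% were higher with FGF1. Has2, the hyaluronan synthase of early mesenchyme, had 14.8, 11.8 and 17.8 FPKM in starved, PDGFA and FGF1 cells. Postn, a matricellular protein of mesenchyme, had 697, 407 [175 to 639] and 578 [327 to 831]. Both had their lowest value with PDGFA. Chains of collagen VI leaned the other way, with 64.6, 88.3 and 55.2 FPKM for Col6a2 and 31.3, 37.6 and 25.2 for Col6a3.

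Pathway lists outside these groups differed little between the ligands. For the counts by sign below, 54.1% of all rows were higher with FGF1. Receptors and adaptors of the 2 pathways had a median of 0.01 over 20 genes and a range of -0.29 to 0.26. Heparan sulfate proteoglycans and their enzymes, which bind FGF at the cell surface, had 0.03 over 22 genes, from -0.42 for Gpc1 to 0.28 for Sdc2. Cholesterol synthesis and uptake genes had 0.15 over 29, with 24 higher with FGF1 and 0 past 1.5-fold in either direction. Insig1, a sterol-regulated retention factor, had 92.6, 110 and 145 FPKM. Notch pathway genes had a median of 0.00 over 17 compared genes in spite of Lfng, and Hes1, the Notch and ERK-responsive repressor, had 21.0, 39.0 and 49.7 FPKM. Clock genes had 0.04 over 12, with Per1 and Bhlhe40 past 1.5-fold. Palate and craniofacial transcription factors had -0.08 over 37, with 28 higher with PDGFA, and -0.03 with the trend removed. S phase and mitosis genes had -0.09 over 30, with 24 higher with PDGFA, and p53 targets 0.13 over 24, with 20 higher with FGF1. Reference genes, chosen for stability, had 0.13 over 14 and 0.01 with the trend removed.

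**Figure D4:**
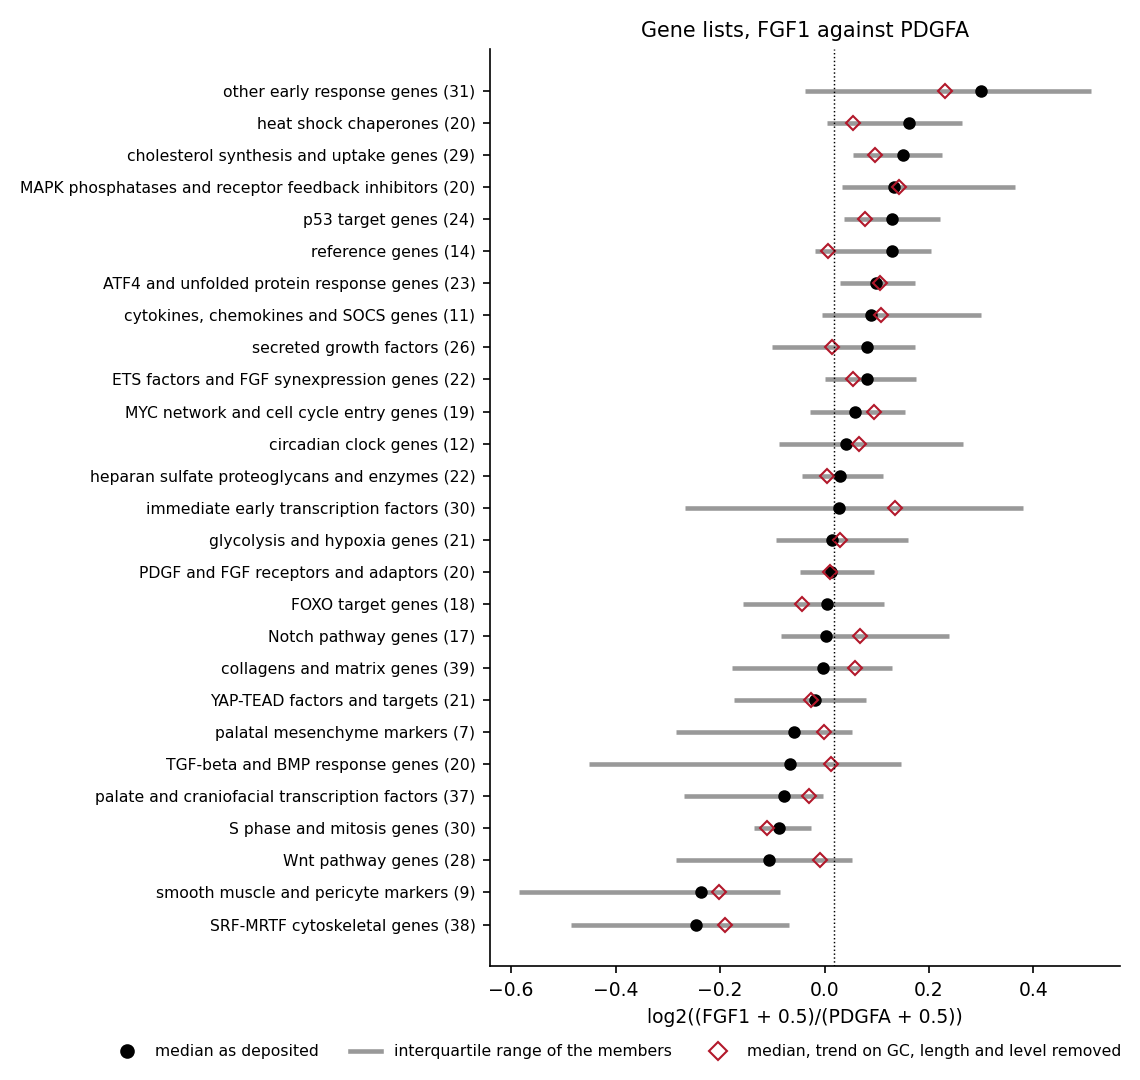
Log2 ratio of FGF1 to PDGFA for each gene list with at least 7 compared members, whose number stands in brackets: filled circles are medians as deposited, grey bars interquartile ranges, open diamonds medians after removal of the trend, and the dotted line the median of all rows. Other early response genes lie farthest to the FGF1 side (0.30) and SRF-MRTF genes farthest to the PDGFA side (-0.25). As diamonds other early response genes stay farthest, at 0.23. Smooth muscle and pericyte markers (-0.20) then lie slightly beyond SRF-MRTF genes (-0.19).

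Base composition moved with the ligand difference. Across the 8630 rows Spearman's rho between the log2 ratio and transcript GC content was -0.63, and with transcript length 0.02; this is across genes, which share their libraries and are not independent replicates. The median log2 ratio went from 0.18 in the eighth of rows lowest in GC, 33.7% to 43.1%, to -0.17 in the eighth highest, 57.9% to 72.3%. That difference is larger than most list medians above. Whether it arose in the cells or in library preparation was not tested, and removal of the trend left the 3 and 5 calls the same.

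**Figure D5:**
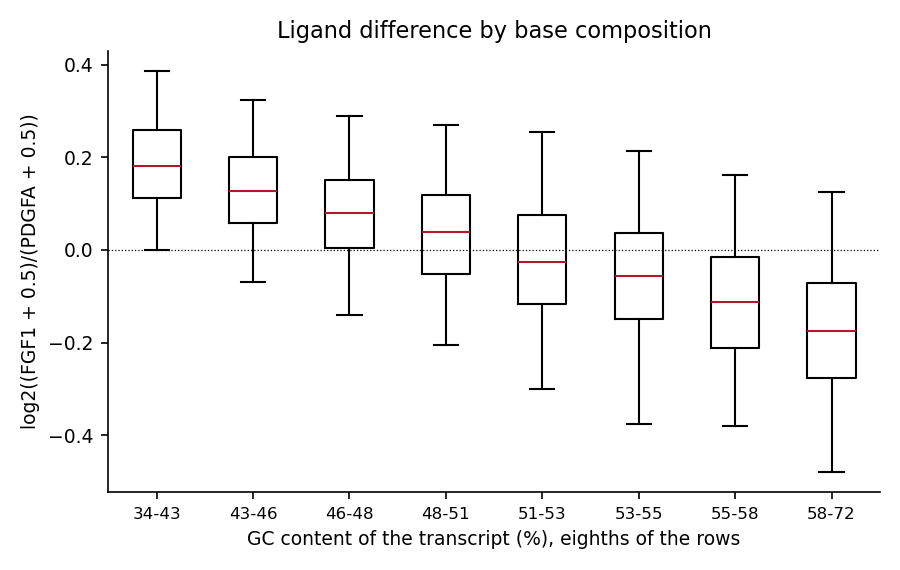
Log2 ratio of FGF1 to PDGFA in eighths of the 8630 rows by transcript GC content (%); boxes are quartiles with the median in red and whiskers reach the 5th and 95th percentiles. The medians go down from 0.18 on the left to -0.17 on the right.

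Epithelial, blood and endothelial markers were low in both ligand groups. The summed level of 12 epithelial markers was 6.9997 FPKM with PDGFA and 6.22 with FGF1, and that of 10 macrophage and blood markers 2.66 and 2.65, with the embryonic globin gene Hbb-y at 0. The 10 endothelial markers summed to 28.6 and 30.7 FPKM, mostly Eng, with Tie1 at 0. Other lists were higher. The 11 neural and Schwann cell markers summed to 79.0 FPKM in starved cells, 96.0 with PDGFA and 88.4 with FGF1, mostly Tubb3 and Stmn2, and the 11 cartilage and bone markers to 124, 121 and 137, mostly Col2a1. All 4 Y-linked genes listed above 0 were lower with PDGFA. Ddx3y had 18.3, 13.48 and 22.3 FPKM in starved, PDGFA and FGF1 cells, Eif2s3y 20.5, 13.8 and 22.1, Kdm5d 3.68, 2.22 and 3.58, and Uty 3.47, 2.19 and 3.61. Xist, the RNA of the inactive X chromosome, had 7.48, 8.25 and 6.12. Ddx3y and Eif2s3y are thus among the 48 rows higher with FGF1, and whether the share of male cells in the cultures had a part in other differences was not tested.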

How the data were processed

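Libraries were polyA-selected RNA. The submitters' processing notes name mm10 and the tools CASAVA, TopHat and Cuffdiff; their versions and settings are not given in the sources used. Per the file headers, the deposited values are FPKM, 1 per group and row, with a lower and an upper bound whose level is not stated, taken as 95% for ratio intervals. FPKM divides by length and library total, so depth is unknown and a row can shift when others change. The planned limma test needs values per library, so intervals were compared instead, and 40 of the 8630 rows had a value outside its own interval and could not be called. Log2 ratios used a pseudocount of 0.5, which understates changes of low genes. Rows were named from RefSeq GRCm38.p6 (22992 rows) or GENCODE M21 (126), and 168 had no name; a row naming several genes carries 1 of their symbols. Transcript length, base composition and 31-base words shared with another locus come from GENCODE M21 transcripts. The trend was a robust regression on GC content, log2 length and log2 level. Genes set to be named were the called rows, up to 4 per list, a panel and the 12 largest ratios in each direction. Those 12 came from rows with overlapping intervals that share under 20% of their words. Not all are described. On the PDGFA side Ddhd1, 4933417G07Rik, Pfas, Mirg, Dancr, Ripor1 and Epc1 were left out. So were Wdfy1, 4930539J05Rik and Csl, among the 12 largest there with no small RNA in the row. Others in the text are further list members, chosen after their values were seen. The members, lists and panel were chosen with earlier results of these data known. Scripts were tested on simulated data. Alternatives covered the minimum level, scaling, pseudocount, trend, shared, short and small-RNA rows and a z value from the bounds. Scripts ran in Python 3.11.15 with pandas 2.3.3, numpy 2.4.6, statsmodels 0.14.6, scipy 1.17.1 and, for figures, matplotlib 3.10.9.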

Additional observations from a re-analysis of the deposited data

Results flagged for a closer look

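Rows under 200 nt, left out of the comparison, carried a signal seen almost only with PDGFA. Of 110 such rows at 5 FPKM or more with either ligand, 73 were listed at 5 FPKM or more with PDGFA and at 0 in starved and FGF1 cells, and 2 were so with FGF1 alone. Most were small nucleolar RNAs and microRNA hairpins. The highest, Snord104, was listed at 931 FPKM with a deposited interval of 1.57 to 42.8, which does not contain the value, and Snord96a at 606 FPKM. Their link to the compared rows that name a small RNA was not tested.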

How the results depend on the processing

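No paired analysis was possible because the table holds 1 value per group, and for the same reason no library could be left out. In place of 3 rows called higher with FGF1 and 5 with PDGFA, a minimum of 1 FPKM gave 11 called higher with PDGFA and 141 at least 1.5-fold higher with PDGFA. A minimum of 5 FPKM in both groups gave 0 called with PDGFA and 2 with FGF1, Egr1 and Per1: Lfng and all 5 rows called with PDGFA are below it in the other group. Median-of-ratios scaling gave 1 called with FGF1, Lfng. Leaving out rows that share sequence gave 3 called with PDGFA, as did leaving out small-RNA rows too, an alternative added after seeing the data. The z value from the bounds, rescaled to its spread over all rows, gave 25 and 59. The TGF-beta and BMP list median turned to 0.012 with the trend removed. Of rows past 1.5-fold, 35.0% were higher with FGF1, but 23.7% with no minimum length and 44.1% with quantile normalization. With a minimum of 5 FPKM in both groups it was 40.4%. None of the 57 named genes past 1.5-fold changed sign. Row filters and the pseudocount cannot change a sign, so only scaling and removal of the trend bore on this, and it is weak support. The wide PDGFA bounds limit what could be called.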
